A study of Mus musculus with 36 samples.

Results

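The genes described here encode the subunits of oxidative phosphorylation in mouse diaphragm, the main muscle of breathing. They were taken by gene name: every array probe set with 1 gene symbol that begins with Ndufa, Ndufb, Ndufc, Ndufs, Ndufv, Sdh, Uqcr, Atp5 or Cox4 to Cox8, with Cyc1 and Cycs. This gave 103 of the 12488 probe sets on the array, for 75 genes, and 10 further probe sets with several symbols were left out. Of the 103, 91 probe sets of 73 genes were bright enough to be tested, each with more than 374.5 signal units on at least 3 arrays. The genes with no tested probe set were Ndufa12 and Cox8a.

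Oxidative phosphorylation is the chain of enzymes in the inner mitochondrial membrane that turns electrons from food into ATP. Complex I (Nduf genes) takes electrons from NADH and complex II (Sdh genes) from succinate. Complex III (Uqcr genes and Cyc1) passes them to cytochrome c, encoded by Cycs, from which complex IV (Cox genes) hands them to oxygen. Complex V (Atp5 genes) makes ATP from the proton gradient that results. Diaphragm fibres contract without rest and are rich in mitochondria. Maturing heart and skeletal muscle largely replace the complex IV subunits Cox6a1, Cox7a2 and Cox8a of most tissues with Cox6a2, Cox7a1 and Cox8b. The mitochondrial genome encodes other subunits, which the rule does not cover.

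Control mice were compared with mdx mice, which carry a point mutation of the dystrophin gene Dmd in every cell and are a model of Duchenne muscular dystrophy. Total RNA of whole diaphragm was measured on 1-colour arrays at 7, 14, 23, 28, 56 and 112 days of age, with 3 arrays for each age and genotype, 36 in all. The title of the series calls the controls wild type, and no strain, sex, pooling or other treatment of either genotype was given in the sources used here. No label states that the 3 arrays of a group hold RNA of different animals. The p-values therefore describe only how these arrays vary, and part of that variation may be technical.

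By complex, the members were 42 probe sets of 31 genes for complex I, 6 probe sets of 6 genes for complex II, 9 of 8 genes for complex III, 1 for Cycs, 23 of 15 genes for complex IV and 22 of 14 genes for complex V. The name rule also took in 5 genes for proteins that help to build the complexes and are not subunits: Ndufaf1 and Ndufaf4 for complex I, Sdhaf1 and Sdhaf2 for complex II, and Cox7a2l, which joins complexes into supercomplexes. These 5 are part of the counts and medians over all members, and the counts by complex at 56 days give them apart. Among the 103 probe sets, 37 had the suffix f, r, i or s, which the array maker gives where probes can match related transcripts or did not meet all design rules. The mean signal of tested members reached 41700 for Cox6c, so the set covers some of the brightest probe sets as well as dim ones.

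Adult muscle genes were bright on every array. The summed signal of the 23 genes of an adult muscle contractile list lay between 205899 and 690999 over the 36 arrays, and no deposited value was 0. The Dmd probe set read 330.0 to 1026 on the 18 control arrays and 138.9 to 712.3 on the 18 mdx arrays, so the ranges overlapped, with medians of 629.6 and 275.9.

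To show what lies next to these genes, the promoters of 5 members named below are printed, chosen after their values were seen. In 61 of the 75 genes a window of 300 bases, 250 before and 50 after the transcription start, could be read from RefSeq (mouse build GRCm38.p6) and searched on both strands for 4 motifs, where a base may count for more than 1 motif. The core site of NRF1, a regulator of nuclear genes for mitochondria, was searched as CGCATGCG and occurred in 9 of the 61 windows (14.8%), against 1.91% of 27025 promoter windows of all genes. The ETS site bound by GABP, searched as CCGGAAG, occurred in 17 of 61 (27.9%) against 9.12%, and the half-site of oestrogen-related receptors, AAGGTCA, in 5 of 61 (8.2%) against 4.66%. The MEF2 motif of muscle promoters was in 0 of 61, against 3.26% of all. A match is a description of letters and not a shown binding site. The 200 bases before the start are given 5′ to 3′ on the strand of the gene, with motif matches in capitals. Cycs, Ndufaf4 and Cox6a1 hold the NRF1 core, which begins 61, 112 and 161 bases before the start. Cox6a1 also holds the ETS site, in reverse, 16 bases before the start. The muscle isoforms Cox7a1 and Cox8b hold none of the letters searched in this window.
Cycs (GRCm38.p6, chr6:50566570-50566769, minus strand): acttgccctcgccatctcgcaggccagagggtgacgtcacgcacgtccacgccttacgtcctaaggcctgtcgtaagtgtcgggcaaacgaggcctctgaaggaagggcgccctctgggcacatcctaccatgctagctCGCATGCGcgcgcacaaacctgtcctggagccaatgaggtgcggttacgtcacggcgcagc
Ndufaf4 (GRCm38.p6, chr4:24897883-24898082, plus strand): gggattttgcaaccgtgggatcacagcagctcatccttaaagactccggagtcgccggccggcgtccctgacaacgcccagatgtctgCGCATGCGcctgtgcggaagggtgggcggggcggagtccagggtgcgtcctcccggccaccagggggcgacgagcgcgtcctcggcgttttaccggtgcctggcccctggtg
Cox6a1 (GRCm38.p6, chr5:115348959-115349158, minus strand): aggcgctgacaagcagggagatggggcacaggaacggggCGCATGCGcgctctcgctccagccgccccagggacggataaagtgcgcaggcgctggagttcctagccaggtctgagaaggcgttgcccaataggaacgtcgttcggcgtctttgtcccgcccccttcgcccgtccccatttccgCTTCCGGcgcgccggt
Cox7a1 (GRCm38.p6, chr7:30183971-30184170, plus strand): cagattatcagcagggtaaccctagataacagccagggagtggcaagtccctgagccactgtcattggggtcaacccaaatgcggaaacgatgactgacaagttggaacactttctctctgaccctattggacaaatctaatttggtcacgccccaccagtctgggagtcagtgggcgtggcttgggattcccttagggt
Cox8b (GRCm38.p6, chr7:140900447-140900646, minus strand): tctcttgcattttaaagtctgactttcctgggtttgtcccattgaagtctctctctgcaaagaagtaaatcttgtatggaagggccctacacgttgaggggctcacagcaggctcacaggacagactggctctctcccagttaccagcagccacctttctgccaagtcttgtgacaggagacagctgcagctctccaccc

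The level of the members on each array was summarised as the median, over the 91 tested probe sets, of the log2 deviation from the mean of all arrays. Controls started low, between -0.27 and -0.20 at 7 days, and lay between 0.16 and 0.41 at 56 days and between 0.07 and 0.42 at 112 days. The mdx arrays lay between -0.15 and -0.02 at 7 days, between -0.12 and -0.07 at 23 days and between -0.02 and 0.06 at 112 days. At 56 days they stood at -0.60, 0.06 and -0.11, against 0.33, 0.41 and 0.16 in controls. At 7 days every mdx array was above every control array on this measure, and at 23, 56 and 112 days every mdx array was below, while at 28 days the ranges overlapped widely, from -0.20 to 0.32 in controls and from -0.32 to 0.12 in mdx. The groups overlapped after quantile normalization at 23 days (-0.04 to 0.07 in controls, -0.07 to -0.02 in mdx) and after median centring at 112 days (-0.02 to 0.46 in controls, -0.13 to 0.04 in mdx).

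**Figure D1:**
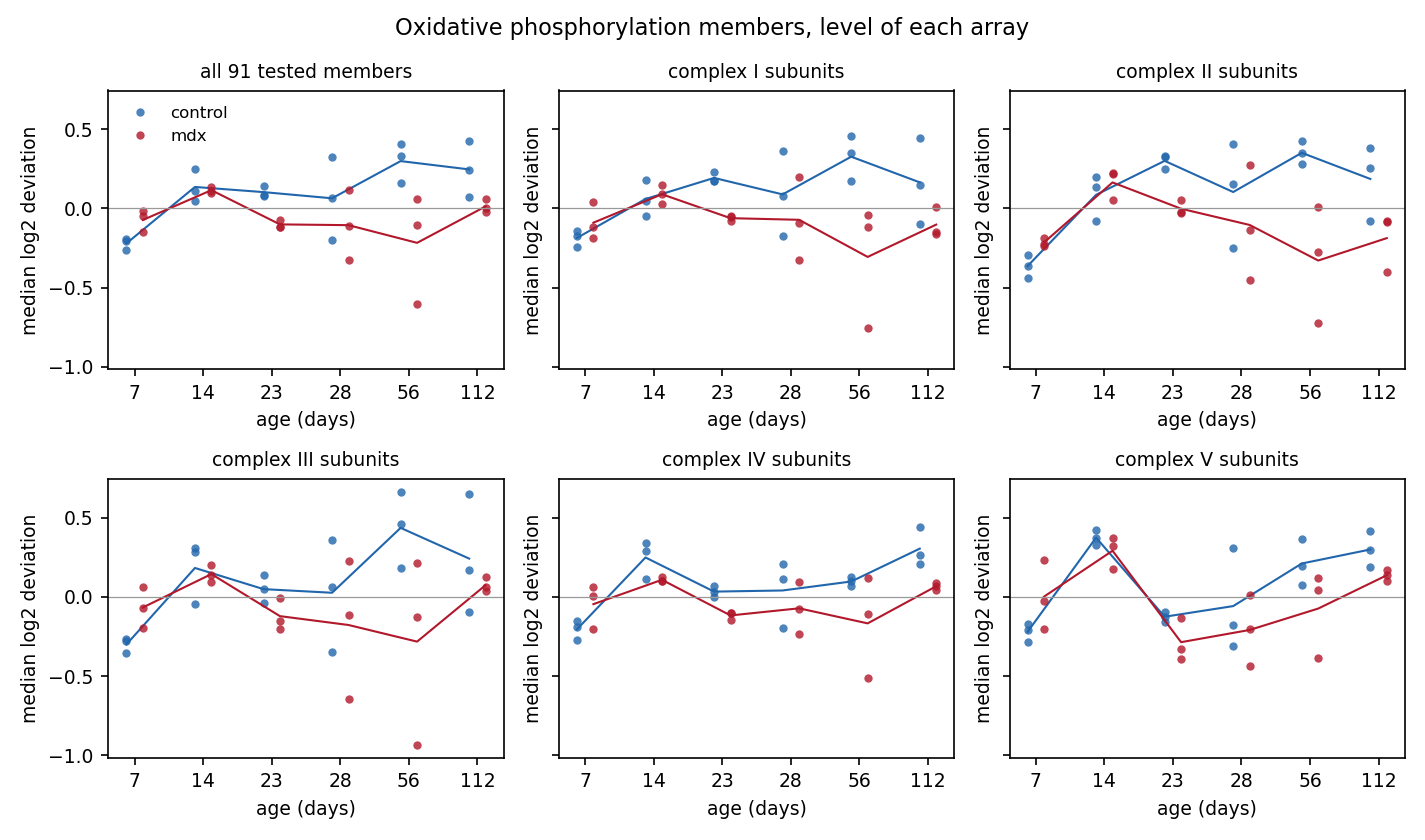
Median log2 deviation of the tested members on each array (vertical axis) by age in days (horizontal axis) for all 91 tested members and for the subunits of each complex. Points are the 3 arrays of a group and lines join group means; blue is control, red is mdx. The control mean of all members is lowest at 7 days, and at 56 days the 3 mdx arrays spread from -0.60 to 0.06, below all 3 controls in the panel of all members.

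At 7 days 0 members passed the test (limma with Benjamini-Hochberg adjustment over all 9291 tested probe sets, adjusted p under 0.05), where 0.409% of all tested probe sets were called lower in mdx and 0.0538% higher. An unadjusted p under 0.05 was reached by 7 members, and the median log2 difference, mdx minus control, was 0.13 against 0.04 over all probe sets. It was -0.21, the opposite sign, with the ratio of the Gapdh control probe sets described further on as a covariate. At 14 days 0 members were called (0 with an unadjusted p under 0.05; 0.0323% of all called lower and 0.161% higher), with a median of -0.06.

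At 23 days 1 member, Ndufs4, was lower in mdx (0.807% of all tested were lower and 2.68% higher). Ndufs4 encodes an accessory subunit of complex I that is needed for its assembly and stability. Its signal was 1671, 1536 and 1616 on the control arrays and 714.5, 908.9 and 1318 on the mdx arrays, so the groups did not overlap. The log2 difference was -0.74 ± 0.20 (SE; adjusted p = 0.0279). The call ended when any control array, or mdx replicate 1 or 2, was left out, after quantile normalization (adjusted p = 0.0773) and in a fit of the 6 arrays of this age alone (adjusted p = 0.121). The other members leaned the same way without passing: 81 of 91 lay below 0, with a median of -0.21 against -0.01 over all probe sets. In 34 of 91 every mdx array lay below every control array, and in 1 above. How often this happened over all tested probe sets was not counted. Cox7a1, the muscle isoform of a complex IV subunit, just missed the threshold (log2 difference -0.54 ± 0.16, adjusted p = 0.0542).

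At 28 days 0 members passed (0.538% of all lower, 2.42% higher; 5 members with an unadjusted p under 0.05), with a median of -0.18 against -0.04 over all probe sets. There were 2 calls without mdx replicate 2 of this age and 1 without mdx replicate 3. For Ndufs4 the log2 difference was -0.64 ± 0.20 at this age (adjusted p = 0.0769).

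By 56 days the members stood apart from controls in greatest number. In mdx diaphragm 33 probe sets were lower and 2 higher, in 35 of 73 genes, where 7.38% of all tested probe sets were lower and 9.27% higher. The median log2 difference of the members was -0.57 against 0.15 over all tested probe sets, and 73 of 91 lay below 0. Here and in the other comparisons, all tested probe sets were not matched to the members in brightness. Array medians at 56 days were 723.4, 674.9 and 669.9 in mdx against 562.8, 552 and 606.2 in controls. The highest member differences, 1.59 to 1.94, came from dim probe sets with mean signals of 204.8 to 251.1. The part of brightness in the members' differences was not tested. The subunits called lower were 15 of 31 tested probe sets in complex I, 3 of 4 in complex II, 5 of 9 in complex III, the 1 of Cycs, 3 of 18 in complex IV and 3 of 22 in complex V, with 3 of 6 for the assembly proteins. The mdx arrays lay wholly below controls in 37 of the 91 and wholly above in 8, again without a count over all tested probe sets. At 7, 14 and 28 days they lay wholly below in 2, 7 and 10 members and wholly above in 10, 0 and 0. Without that background, these counts do not set the members apart from other probe sets. The number of called members rested on few arrays. It was 11 without mdx replicate 1, the array with the lowest member level, 16 without control replicate 1 and 15 without control replicate 2. It was 11 after quantile normalization, 10 from the 6 arrays of this age alone and 54 after centring each array on its median. Of the 35 calls 4 were kept in every alternative run. Quantile normalization ended 25 of them, the fit of the 6 arrays alone 26, and leaving out mdx replicate 1 ended 24. The notes on single members below mainly name the single arrays whose omission ended a call. Median centring moved the median of all probe sets from 0.15 to -0.04, and over all probe sets it turned 686 lower and 861 higher calls into 1161 lower and 478 higher. The members' median stayed below 0 in 13 of 13 settings, from -0.76 to -0.23.

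**Figure D2:**
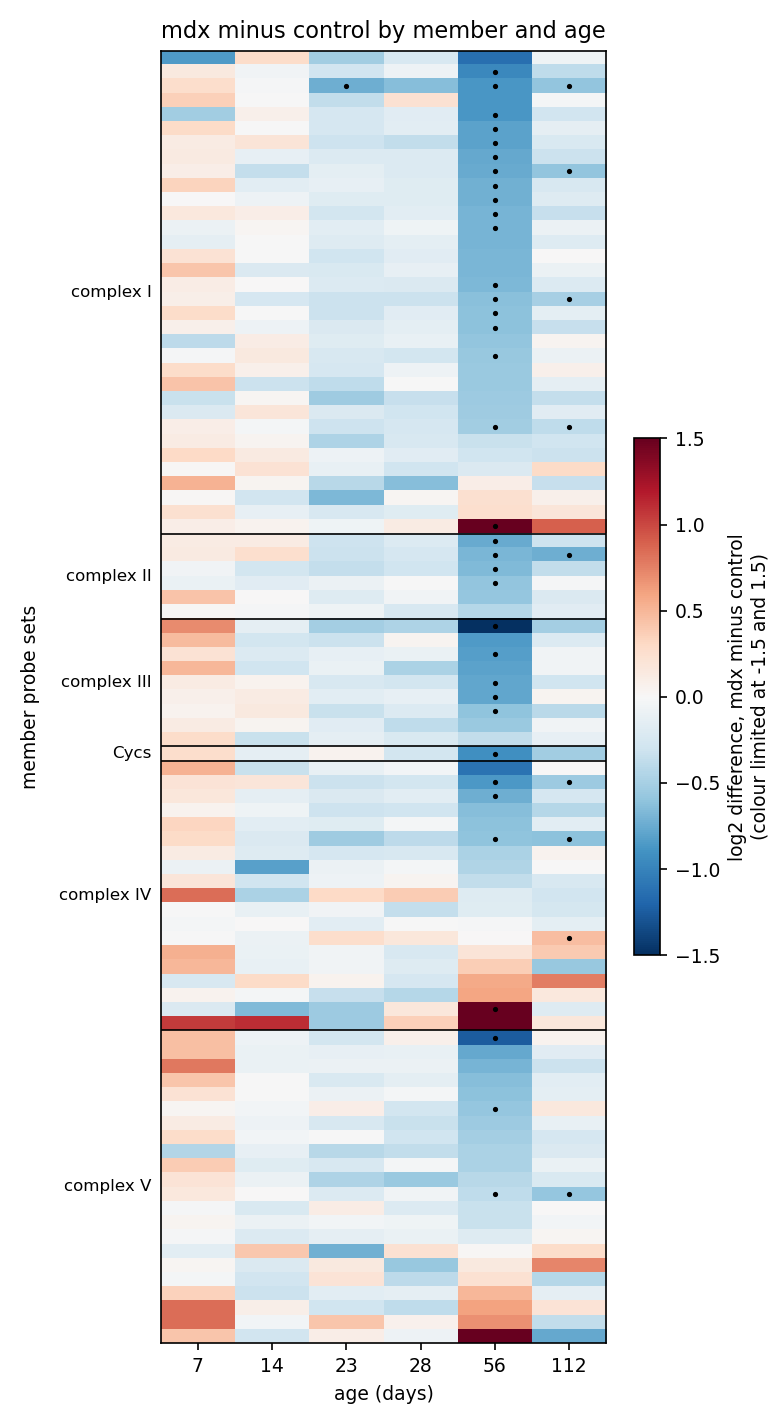
Log2 difference, mdx minus control, of the 91 tested members (rows, grouped by complex and sorted within it by the difference at 56 days) at the 6 ages (columns). Blue is lower and red higher in mdx, colour is limited at -1.5 and 1.5, and a black dot marks an adjusted p under 0.05. The dots gather at 56 days, 33 lower and 2 higher, with 9 at 112 days and 1 at 23 days.

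In complex I the member with the firmest difference at 56 days was Ndufs4 among the subunits. It read 1596, 1637 and 1489.7 in controls and 789.8, 737.9 and 1026 in mdx, with no overlap, a log2 difference of -0.88 ± 0.20 (adjusted p = 0.00236). Ndufs1, the large iron-sulfur core subunit of the electron-input arm, read 25886, 27496 and 22870.4 in controls and 15164, 18117 and 20090.2 in mdx. All mdx values again lay below all control values (-0.52 ± 0.13, adjusted p = 0.00434), but after quantile normalization the difference was -0.02 with an adjusted p of 0.941. Ndufa3, an accessory subunit, read 34800.2, 35601 and 34933 in controls and 14654, 23748 and 23292 in mdx, without overlap (-0.80 ± 0.19, adjusted p = 0.0034); the other, dimmer Ndufa3 probe set was not called, with 0.25. Others called lower, of which the first pair was named after its values were seen, were Ndufv1, which carries the NADH-binding site (-0.80), Ndufab1, the mitochondrial acyl carrier protein (-0.96), and the accessory subunit Ndufa8 (-0.62 ± 0.16, adjusted p = 0.00758; call lost without mdx replicate 1), which read 19081, 20708 and 18534 in controls and 8925, 14118 and 15846 in mdx, again apart. Of 4 tested genes for core subunits of complex I, 3 were called lower. One complex I probe set, Ndufc2, was called higher, but it was dim: 63.3, 40.9 and 156.0 in controls and 357.2, 437.4 and 374.6 in mdx, near the filter level, and its call was lost in 13 of 17 alternatives.

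Both complex I assembly factors were called lower at 56 days. Ndufaf1 read 5882, 5902 and 5465 in controls and 3401, 3039 and 4030.5 in mdx, groups far apart (log2 difference -0.72 ± 0.14, adjusted p = 0.000566), while its other, dim probe set was not called (-0.21). Ndufaf4 read 2441, 2930.3 and 2797 in controls against 1763, 1234 and 1854 in mdx (-0.76 ± 0.19, adjusted p = 0.00616). The Ndufaf4 call was lost without mdx replicate 2 only, among the 18 alternatives run.

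Of complex II, the enzyme that the respiratory chain shares with the citric acid cycle, 3 of the 4 subunits were lower in mdx than in controls at 56 days. Sdha, the catalytic flavoprotein, read 8750.2, 8687 and 9709 in controls and 7006, 4449 and 5690.0 in mdx, without overlap (-0.68 ± 0.18, adjusted p = 0.0078; call lost without mdx replicate 2). Sdhb, the iron-sulfur subunit, read 30663, 30312 and 36987 in controls and 13914, 26997 and 22884 in mdx (-0.67 ± 0.21, adjusted p = 0.0259). The membrane anchor Sdhc read 33483, 31866 and 23992 against 11960.5, 23684 and 18785 (-0.75 ± 0.22, adjusted p = 0.0147). In both, mdx replicate 1 was the lowest array, and both calls were lost without it and without control replicate 1; that of Sdhb was lost also without control replicate 3 and that of Sdhc without control replicate 2. The other anchor, Sdhd, did not pass (-0.57 ± 0.20, adjusted p = 0.0517): it read 30859, 39212 and 27303 in controls and 17861, 27915 and 20029 in mdx, and the groups overlapped. Sdhaf1, an assembly factor for the iron-sulfur subunit, read 3417, 3736 and 2690.0 in controls and 2015, 2261 and 2195 in mdx (-0.59 ± 0.15, adjusted p = 0.00724; call lost without control replicate 2). Sdhaf2, which helps to attach the flavin of Sdha, read 2063, 1986 and 2244 against 1684, 1248 and 1751; the groups did not overlap, but it was not called (-0.43 ± 0.16, adjusted p = 0.0634).

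Of the 9 tested probe sets of complex III, 5 were called lower at 56 days and all 9 lay below 0. Cycs, the gene of the carrier between complexes III and IV, read 10273, 8267 and 13026 in controls, against 4486, 5027 and 7174 in mdx, with no overlap, a log2 difference of -0.92 ± 0.22 (adjusted p = 0.00426). Cyc1 encodes cytochrome c1, the haem subunit of complex III that reduces cytochrome c. The dimmer of its 2 probe sets was called (-1.50 ± 0.50, adjusted p = 0.0377), but its mdx arrays read 776.3, 10010.3 and 5006 against 8799.6, 10270.5 and 10231, so the groups overlapped and mdx replicate 1 was far below the rest. The brighter Cyc1 probe set read 38205, 42037 and 35482 in controls and 12325, 28758 and 30045 in mdx and did not pass (-0.81 ± 0.41, adjusted p = 0.178). The Cyc1 call was lost when any of the 3 controls or mdx replicate 1 was left out. The others called lower in complex III were Uqcr10, Uqcrb, Uqcr11 and the core subunit Uqcrc1, with log2 differences between -0.83 and -0.60.

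In complex IV the muscle isoforms differed among themselves. Cox8b had the lowest adjusted p of all members at 56 days. The dimmer of its 2 probe sets read 10929, 9932 and 9358 in controls and 4998, 4980.1 and 6778 in mdx, well apart (-0.86 ± 0.16, adjusted p = 0.000356); the brighter one had -0.63 ± 0.24 and did not pass (adjusted p = 0.0703). Cox7a1 read 22515, 24331 and 22275 in controls and 11385, 16827 and 18244 in mdx, again without overlap (-0.60 ± 0.16, adjusted p = 0.00836; call lost without mdx replicate 1). Cox6a2 read 28583, 31319.7 and 17471 against 3839, 29435 and 13613, so its groups overlapped and it did not pass (-1.11 ± 0.43, adjusted p = 0.074).

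The forms of complex IV subunits used in most tissues gave no call at this age. Cox7a2 read 36712, 35595 and 25641 in controls and 15593, 29218 and 20632 in mdx, which overlapped (-0.61 ± 0.23, adjusted p = 0.0599). Cox6a1 read 13006, 13825 and 14796 against 11294, 17424 and 13558, a log2 difference of 0.00 ± 0.15, the mdx values lying on both sides of the controls. Cox8a was at most 358.8 on any array and was not tested. Cox6c, a subunit without a muscle isoform, was called through 1 of its 3 probe sets: the bright one read 56244, 55937 and 47716 in controls and 22096, 38891 and 38096 in mdx (-0.73 ± 0.18, adjusted p = 0.00426; call lost without mdx replicate 1). The other Cox6c probe sets were dim and not called, at -0.20 and 1.91. The second probe set called higher among all members was Cox5a, which was dim as well, with 110.0, 24.4 and 202.1 in controls and 290.2, 361.6 and 495.6 in mdx (1.72 ± 0.54, adjusted p = 0.0258; call lost without control replicate 1 or 2 or mdx replicate 2 or 3). Ndufc2 and Cox5a were named after their values were seen.

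**Figure D3:**
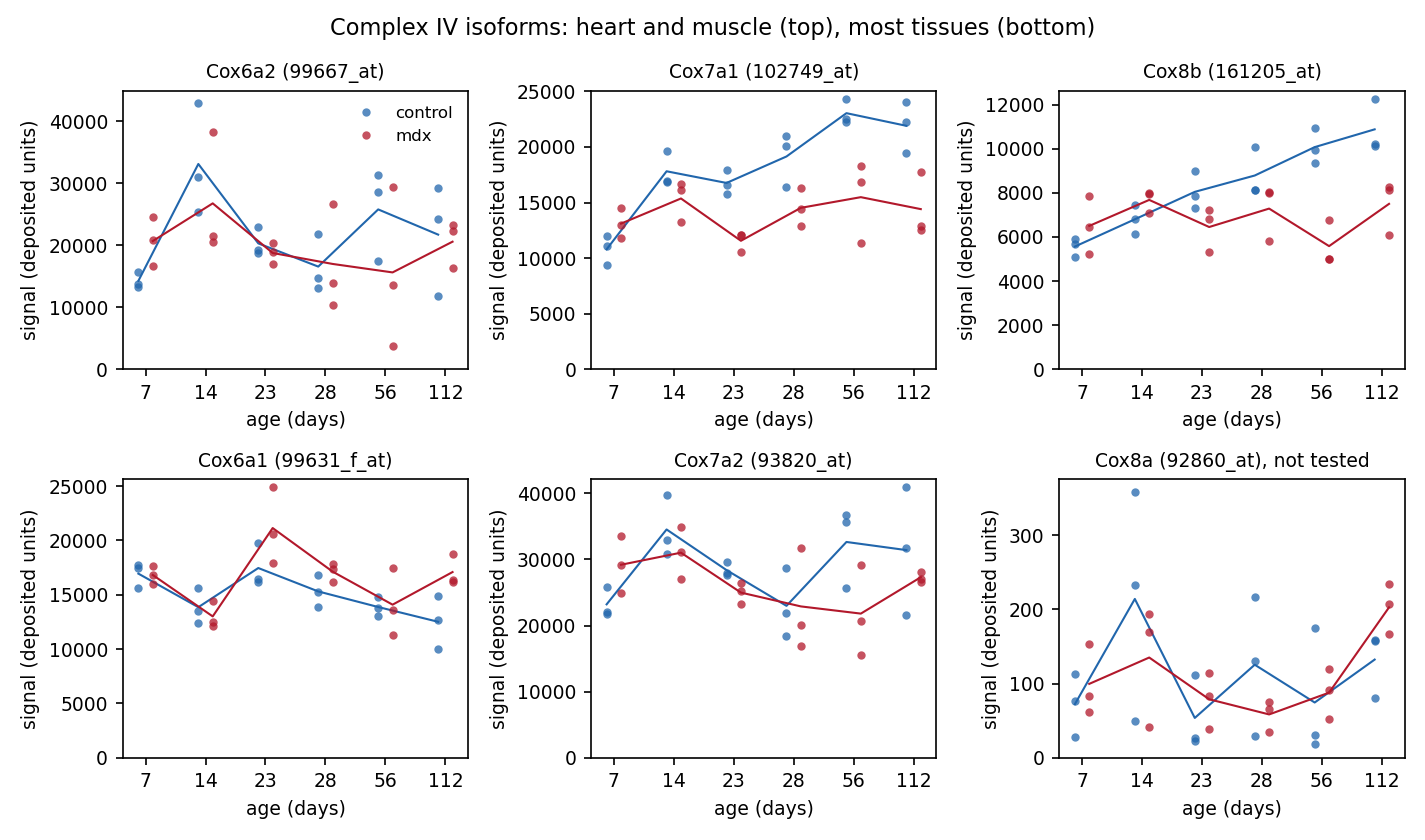
Signal of complex IV isoforms on each array (vertical axis, deposited intensity units, starting at 0) by age in days, with those of heart and muscle in the top row and those of most tissues in the bottom row. Points are single arrays and lines join the means of 3; blue is control, red is mdx. Cox8b is shown by the dimmer of its 2 probe sets. Cox7a1 and this Cox8b probe set climb with age in controls and stay lower in mdx at 56 and 112 days. The brighter Cox8b probe set was not called for any of these differences. Cox6a1 at 112 days is higher in mdx, 16219.6 to 18717 against 9971 to 14925. Cox8a is too dim to compare.

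Complex V, the ATP synthase, had 3 of 22 probe sets called lower at 56 days. They were Atp5c1, the gamma subunit of the rotor (-0.39 ± 0.14, adjusted p = 0.0489), Atp5d, the delta subunit beside it (1 of 5 probe sets, -0.58), and Atp5md, a small membrane subunit (-1.25); the last pair was named after its values were seen. The called Atp5c1 probe set read 31788, 33657 and 28793 in controls and 19799.5, 23981 and 29097 in mdx, and the groups overlapped. The call was lost without control replicate 1 or 2 and without mdx replicate 1 or 2, and after quantile normalization the difference turned to 0.18. The 5 Atp5d probe sets ran from -0.61 to 0.69, so they did not behave alike. Among the 14 member genes with several tested probe sets, 6 had probe sets of both signs at 56 days: Atp5d, Atp5g2, Cox4i1, Cox6b2, Cox6c and Ndufa3.

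At 112 days fewer members were called: 8 were lower and 1 higher (4.52% of all tested lower, 7.65% higher), with a median of -0.17 against 0.02 over all probe sets. All 8 were among the 33 that were lower at 56 days (24.2% of the 33); the arrays of the 2 ages are different arrays. Counts of 5, 5, 4 and 4 were found without control replicate 2, control replicate 3, mdx replicate 2 and mdx replicate 3, and 0 from the 6 arrays of this age alone. Leaving out arrays with albumin, a liver transcript, above 10000 gave 2, but that kept 1 control array against 2 mdx arrays, with the spread taken from the other groups; Sdha was then at -0.71 (adjusted p = 0.132) and Atp5c1 at -0.56 (adjusted p = 0.144). A technical measure of the arrays also moved with this contrast. The actin control probe sets gave a 3'/5' signal ratio of 1.68, 0.53 and 1.41 in controls and of 0.193, 0.403 and 0.937 in mdx. With this ratio as a covariate 5 members were called. The part of the ratio in the result was not tested further. In 15 of 91 members every mdx array lay below every control array at this age, and in 1 above. This was not counted over all tested probe sets.

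Atp5c1 had the lowest adjusted p at 112 days. It read 33793, 32534 and 33268 in controls and 23584, 20912 and 22294 in mdx, with a wide gap between the groups (-0.58 ± 0.14, adjusted p = 0.0036); the call was kept whichever array was left out, and the brighter Atp5c1 probe set was not called (-0.16, adjusted p = 0.783). Sdha read 10107, 7739 and 10735 against 6204, 4734 and 6144, with all mdx values below all controls (-0.74 ± 0.18, adjusted p = 0.00463), again whichever array was left out. Of the other Sdh genes, Sdhb (-0.36), Sdhc (-0.31), Sdhd (-0.21), Sdhaf2 (-0.17) and Sdhaf1 (-0.02) were not called at this age. Cox7a1 read 22243, 19422 and 24041 in controls and 17785, 12894 and 12550.3 in mdx (-0.62 ± 0.16, adjusted p = 0.00771; lost without mdx replicate 3). The dimmer Cox8b probe set read 10144, 10217 and 12275 against 8284, 6077 and 8141 (-0.54 ± 0.16, adjusted p = 0.0225). Its call was lost without control replicate 3 or mdx replicate 2. In neither of these called probe sets did the groups overlap. The brighter Cox8b probe set was not called (-0.43 ± 0.24, adjusted p = 0.282).

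At 112 days Ndufaf4 read 1973, 2226 and 2357 in controls, and the mdx arrays read 1523, 1514 and 1298 (-0.59 ± 0.19, adjusted p = 0.0416). Ndufs4 read 1422, 1365 and 1389.9 against 1184, 681.1 and 950.2 (-0.59 ± 0.20, adjusted p = 0.0471). The groups were apart in both, but 5 of the 6 omissions of 1 array ended each call, all except control replicate 1 for Ndufaf4 and mdx replicate 1 for Ndufs4. Ndufs1 and Ndufa8 were called lower as well (-0.38 and -0.49). Cycs was not called at this age (-0.52 ± 0.22, adjusted p = 0.133): mdx replicate 1 read 9144, inside the control values of 9655, 7123 and 9912, while the other mdx arrays read 5073 and 4979.

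The 1 member that was higher in mdx at 112 days was Cox6a1, the form of its subunit used in most tissues. It read 9971, 12649 and 14925 in controls and 16341, 18717 and 16219.6 in mdx, with no overlap (0.46 ± 0.15, adjusted p = 0.0394), and the call was lost when any array but control replicate 3 was left out. Its muscle counterpart Cox6a2 read 24196, 11801 and 29178 against 22237, 23228 and 16294, a log2 difference of 0.00 ± 0.43. Cox7a2, the counterpart of Cox7a1, had -0.15 ± 0.23 at this age. With only the brightest probe set of each gene counted, which takes the brighter one of Cox8b, 1 of the 3 muscle isoforms was lower at 56 days and 1 at 112 days, and of the 2 tested forms of most tissues 0 were called at 56 days and 1 was higher at 112 days. Whether the 2 forms of a subunit differed in their response was not tested.

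Averaged over the 6 ages, 23 members were lower in mdx and 0 higher, where 7.41% of all tested were lower and 10.4% higher. The median was -0.16 against 0.03 over all probe sets. Ndufs4 (-0.43 ± 0.08, adjusted p = 0.000179), Cox7a1 (-0.35 ± 0.06, adjusted p = 0.000186) and Ndufa8, an accessory complex I subunit (-0.32 ± 0.07, adjusted p = 0.000622), led, followed by Ndufs1 (-0.23), Ndufaf4 (-0.32) and Cox8b (-0.27). Of the 23, 17 were among the 33 lower at 56 days (73.9% of the 23 and 51.5% of the 33). The mean includes the 56-day difference, so the lists share arrays and some overlap is built in. The count was 14 after quantile normalization, 8 without arrays with albumin above 10000 (9 of the 36 arrays), 46 with the Gapdh ratio and 10 with the actin ratio as a covariate. Ndufs4, Cox7a1, Ndufa8, the dimmer Cox8b probe set and Sdhb kept their call in all 47 alternatives of this mean.

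**Figure D4:**
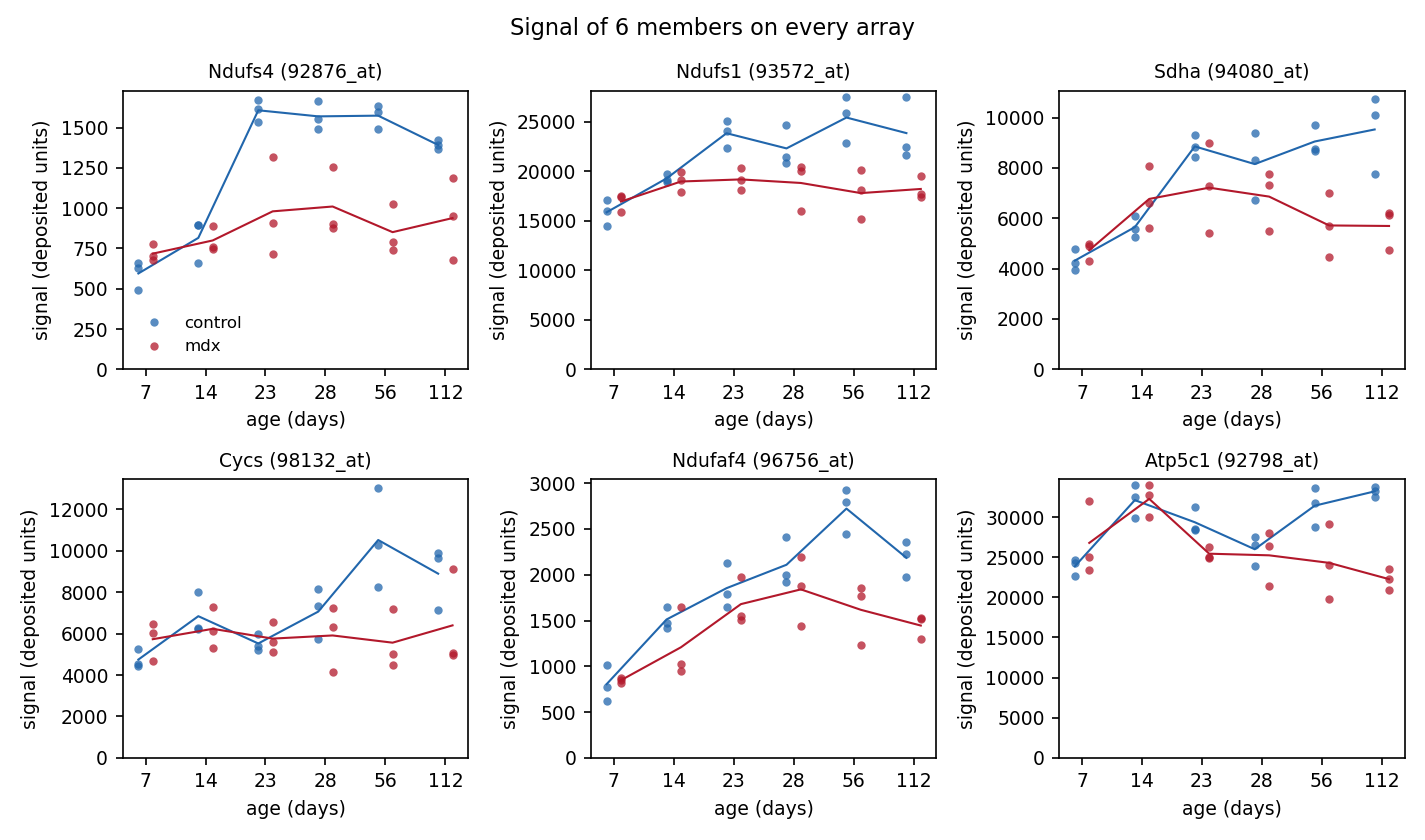
Signal of Ndufs4, Ndufs1, Sdha, Cycs, Ndufaf4 and Atp5c1 on each array (vertical axis, deposited intensity units, starting at 0) by age in days. Points are single arrays and lines join the means of 3; blue is control, red is mdx. Ndufs4 in controls goes from 491.8 to 661.7 at 7 days to 1536 to 1671 at 23 days, and the mdx arrays at 23 days lie between 714.5 and 1318.

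Whether the genotype difference depended on age was tested with an F test over the ages. Of the 91 tested members 5 passed, a smaller share than the 8.93% of all tested probe sets. The 5 were the dimmer Cox8b probe set (adjusted p = 0.00864), Ndufs4 (0.0236), Sdha (0.026), Cox7a1 (0.0371) and Ndufa10, an accessory complex I subunit (0.0437). The brighter Cox8b probe set did not pass the F test (F = 1.03, adjusted p = 0.612). The count was 10 with array weights, 2 without mdx replicate 2 at 14 days, and 3 without any 1 of the 3 controls at 7 days, control replicate 3 at 23 days, control replicate 1 or 2 at 56 days, control replicate 1 at 112 days or mdx replicate 2 at 112 days. In direct tests of neighbouring ages, 0 members changed their difference from 28 to 56 days (0.0215% of all changed down and 0.0646% up; 12 members with an unadjusted p under 0.05) and 0 from 56 to 112 days (0.0538% down, 0.0431% up; 14 members with an unadjusted p under 0.05). The greater number of calls at 56 days was thus not shown to be a change between ages for any single member.

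The members grew brighter with age in controls. From 7 to 112 days 30 members rose in controls and 3 fell, while over all probe sets 21.4% rose and 20.3% fell, and the members' median change was 0.47 against 0.10. Some of the 30 were dim: Cox6c probe sets above the filter level on only 3 and 7 arrays, and an Atp5g2 probe set on 5. The bright Cox6c probe set was not called (0.42, adjusted p = 0.0549), nor was the brighter Atp5g2 probe set (-0.12). These were named after their values were seen. In mdx, 2 rose and 0 fell over the same span (8.18% of all rose, 9.18% fell), with a median of 0.08. Beside this stands a technical measure of the arrays. The Gapdh control probe sets gave a 3'/5' signal ratio of 0.147, 0.0555 and 0.0357 on the control arrays at 7 days. On the mdx arrays of that age it was 0.83, 0.32 and 0.704. With this ratio as a covariate the control count was 15 and the members' median change -0.06, the opposite sign. The count was 21 without control replicate 1 at 7 days. It was 19 without arrays with albumin above 10000, where the control arm at 112 days was 1 array, assumed to vary like the other groups.

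Ndufaf4 rose most firmly in controls, from 1017, 619.7 and 778.2 at 7 days to the values of 112 days above (1.43 ± 0.19, adjusted p = 7.68e-07). Sdha went from 4241, 3935 and 4781 at 7 days to at least 7739 (1.13 ± 0.18, adjusted p = 1.06e-05). Ndufs4 went from 491.8, 631.4 and 661.7 to at least 1365 (1.19 ± 0.20, adjusted p = 1.8e-05). Each of these 3 rose beyond the spread of the arrays.

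Both called muscle isoforms rose too: Cox7a1 from 11972, 9364 and 11050.5 to at least 19422 (1.02 ± 0.16, adjusted p = 7.94e-06) and the dimmer Cox8b probe set from 5693, 5079 and 5924 to at least 10144 (0.96 ± 0.16, adjusted p = 2.37e-05). The brighter Cox8b probe set did not pass (0.50 ± 0.24, adjusted p = 0.0998). Cox8c, a form of the Cox8 subunit known from testis, had 1.18 ± 0.22 (adjusted p = 0.000102). These 6 rises in controls kept their call in all 17 alternatives run. Cycs rose from 4458, 4528 and 5254 at 7 days to 9655, 7123 and 9912, with no overlap (0.89 ± 0.22, adjusted p = 0.00202), and so did the dimmer Cyc1 probe set (2.10 ± 0.50, adjusted p = 0.00141), which read 4054, 2156 and 1670.5 at 7 days and 13743, 7085 and 12239.6 at 112 days. The brighter Cyc1 probe set did not pass (0.64 ± 0.41, adjusted p = 0.213). The 3 that fell with age in controls were Cox6a1 (-0.45, adjusted p = 0.0169), Cox6b2, another testis form (-1.59), and Ndufa6, an accessory complex I subunit (-0.62); the last 2 were named after their values were seen.

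In mdx the 2 members that rose from 7 to 112 days were Ndufaf4 (0.74 ± 0.19, adjusted p = 0.00589) and Cox6b1, a complex IV subunit (0.86 ± 0.29, adjusted p = 0.0392). Ndufaf4 went from 822.9, 875.4 and 845.6 to 1523, 1514 and 1298, with no overlap. Cox6b1 went from 1442, 807.4 and 872.7 to 1358, 1858 and 2494, so the ages overlapped, and its call was lost without mdx replicate 2 or 3 of either age. Leaving out mdx replicate 1 at 7 days gave 6 calls in place of 2, and leaving out mdx replicate 2 or 3 of either age gave 1.

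The 2 age courses were then compared directly, a test added after the data were seen. The change from 7 to 112 days was smaller in mdx for 7 members and larger for 0 (3.59% of all tested were lower and 6.25% higher). Cox7a1 had the lowest adjusted p: the mdx arrays read 14551, 12939 and 11829 at 7 days, each above at least 2 of the 3 controls, and 17785, 12894 and 12550.3 at 112 days, and the difference of the changes was -0.90 ± 0.22 (adjusted p = 0.00899). Atp5c1 (-0.73 ± 0.19, adjusted p = 0.0131) and Sdha (-0.87 ± 0.25, adjusted p = 0.0251) came next; at 7 days the mdx arrays had read 31939, 24982 and 23413 for Atp5c1 and 4884, 4997 and 4316 for Sdha, overlapping the controls. Then came Cox8c (-1.06), the dimmer Cox8b probe set (-0.75), Ndufs4 (-0.85) and Ndufa10 (-0.87). Cox8c had gone from 2312, 2896 and 1948 to 6519.9, 5532 and 4326 in controls and from 5753, 2135 and 3009 to 3288, 4570.1 and 3173 in mdx, so its mdx arrays overlapped between the ages and its control arrays did not. The members' median was -0.42 against -0.03 over all probe sets. With the Gapdh ratio as a covariate 2 members were called and the median was 0.09, the opposite sign. Single arrays also set the count: it was 1 without mdx replicate 1 at 7 days, 2 and 4 without control replicates 1 and 3 at 7 days, 4 and 4 without control replicates 1 and 2 at 112 days, and 3 without mdx replicate 2 at 112 days.

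**Figure D5:**
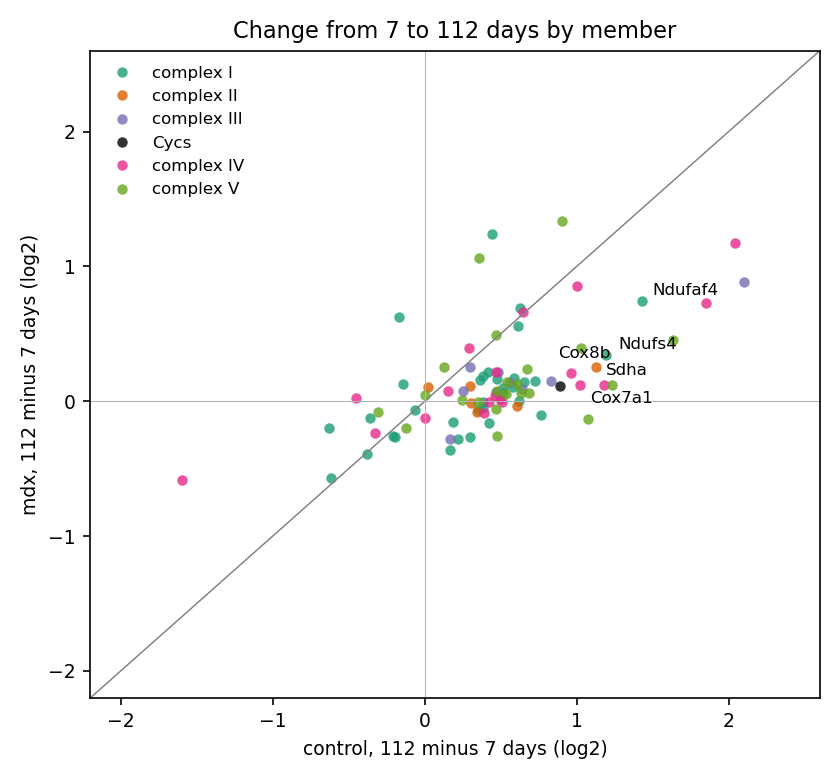
Log2 change from 7 to 112 days of the 91 tested members in controls (horizontal axis) and in mdx (vertical axis), coloured by complex, with the line of equal change in grey. Most points lie below that line and right of 0, with a median change of 0.47 in controls and 0.08 in mdx. Ndufaf4, Ndufs4, Sdha, Cox7a1 and the dimmer Cox8b probe set are labelled.

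Other pathways that feed or serve the respiratory chain were counted with the same fit, taking the brightest probe set of each gene. At 56 days 14 of 16 genes of fatty acid oxidation were lower in mdx and 0 higher, with a median of -0.83, among them Slc25a20, which carries acylcarnitines into mitochondria (-1.26), Cpt2 (-0.92) and Echs1 (-1.15). The citric acid cycle had 10 of 15 lower and 0 higher, with a median of -0.66, such as Idh3a (-0.71) and Sucla2 (-0.64). At 112 days the counts were 11 of 16 for fatty acid oxidation (median -0.64) and 6 of 15 for the cycle (median -0.25). All genes tested had medians of 0.15 and 0.02 at the 2 ages.

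Among 9 regulators of mitochondrial genes, 3 were lower at 56 days: the coactivator Ppargc1a (-1.01, adjusted p = 0.0135), the nuclear receptor Esrra (-0.66, adjusted p = 0.00264) and Ppara, a receptor that drives fatty acid use (-0.54, adjusted p = 0.0447). At 112 days Esrra alone of these 9 was called (-0.48, adjusted p = 0.0342). Of 28 genes of the mitochondrial ribosome and translation 8 were lower at 56 days (median -0.32), such as Mrpl16 (-0.78). Of 10 further assembly and maturation genes 2 were lower and 1 higher (median -0.10), with Lrpprc, which stabilises mitochondrial mRNA, at -0.47. Glycolysis, outside mitochondria, had 6 of 12 lower at 56 days with a median of -0.67, among them Hk2 (-0.68) and Eno3 (-0.91), and 1 of 12 lower at 112 days.

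RNA of marker genes for other cell types and states differed in the same contrasts. At 56 days 8 of 23 genes of the adult contractile list were lower and 0 higher, with a median of -0.68. Their summed signal lay between 471904 and 646549 in controls and between 205899 and 534896 in mdx. The list also held genes of other kinds, among them the glycolytic Eno3, which is counted in both lists. Of 17 macrophage and monocyte genes 15 were higher (median 1.48), with a summed signal of 30833 to 35606 in controls and 79807 to 99591 in mdx. Of 14 fibroblast and matrix genes 7 were higher (median 0.67; summed signal 114496 to 117856 against 146362 to 205888), and of 12 genes of immature muscle 11 were higher (median 2.01). At 112 days 1 of 23 contractile genes was lower (Myl3 at -1.12; median of the list -0.16), 14 of 17 macrophage genes were higher (summed signal 29657 to 30334 against 101588 to 107678) and 8 of 14 fibroblast genes were higher. In bulk tissue, fewer muscle fibres and less of an RNA per fibre cannot be told apart, and the part of these lists in the members' differences was not tested.

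Other markers and array measures at 56 days were as follows. Of 7 endothelial genes 2 were lower, of 5 adipocyte genes 2 were lower, of 3 red cell genes 1 was lower, and 0 of 7 liver genes were called. Albumin read 668.1 to 15483 in controls and 179.4 to 347.2 in mdx, and leaving out arrays with albumin above 10000 gave 20 called members in place of 35. The actin control probe sets gave a 3'/5' signal ratio of 1.01 to 1.21 in controls and of 1.17, 0.716 and 0.35 in mdx, and with it as a covariate 24 members were called, 24 lower and 0 higher.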

How the data were processed

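The values are probe set intensities on a linear scale, deposited by the authors, 1 column for each of 36 arrays; the labels name the array maker's standard protocol but no software (not given in the sources used here). Between percentiles 2 and 98 the mean was 1499.2 to 1499.7 on all arrays, so they had been brought to a common level, and no further scaling was applied. The median signal of an array was 450.6 to 723.4. For arrays, precision is limited by their number. Gene names came from the platform annotation, and all 103 members matched a RefSeq gene.

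Values were analysed as log2(value + 32), which understates changes of dim genes, over the 9291 probe sets with at least 3 arrays above percentile 40 (374.5). limma 3.58.1 in R 4.3.3 fitted 12 group means to 36 arrays (24 residual degrees of freedom, eBayes with a trend), with Benjamini-Hochberg adjustment within each comparison and a threshold of 0.05. Errors are standard errors from the variance that this fit pooled over the 12 groups, moderated by eBayes. For a comparison of 3 arrays against 3 a probe set therefore has the same error at every age, such as 0.20 for Ndufs4 at 7 and at 56 days. Such an error does not measure the spread of the arrays of a single age. Errors of the mean over the 6 ages rest on all 36 arrays, and those of a difference of changes on the arrays of both ages in both genotypes. The fit was also run on simulated data with known changes and independent noise for each probe set. That simulation held no shift shared by a whole array, so it cannot speak to calls that rested on single arrays.

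Members named with values are, by rule, up to 6 called ones of lowest adjusted p in each comparison, the complex IV isoform pairs, Ndufs4, Cycs, Cyc1 and the Sdh genes, with those outside it marked as named after their values were seen; 3 genes at most are named from a pathway list. The members and the 17 lists, of 235 genes, were chosen with earlier results of these data known. The alternatives are given in the closing section.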

Additional observations from a re-analysis of the deposited data

Results flagged for a closer look

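For 5 of the 91 tested members the difference between mdx and control depended on age by the limma F test with adjusted p under 0.05. This is a smaller share than the 8.93% of all tested probe sets. The 5 were the dimmer Cox8b probe set (F = 6.56), Ndufs4 (F = 5.26), Sdha (F = 5.14), Cox7a1 (F = 4.67) and Ndufa10 (F = 4.47). The brighter Cox8b probe set did not pass the F test (F = 1.03, adjusted p = 0.612). For 7 members the change from 7 to 112 days differed between the genotypes in a test of that difference, being smaller in mdx on the log2 scale. Over all tested probe sets 3.59% were lower and 6.25% higher. The 7 were Cox7a1 (-0.90), Atp5c1 (-0.73), Sdha (-0.87), Cox8c (-1.06), the dimmer Cox8b probe set (-0.75), Ndufs4 (-0.85) and Ndufa10 (-0.87). Ndufa10 had read 3035, 2070.0 and 2124 in mdx against 1644, 1828 and 1479.5 in controls at 7 days, and 2437, 1936 and 2295 against 2984, 3067 and 2446 at 112 days, so the order of the groups turned round. Leaving out the 9 of 36 arrays with albumin above 10000 left 1 control array at 14 days and 1 at 112 days, with the spread taken from the other groups. In that fit 0 of the 5 and 0 of the 7 were called, while 6 of the differences of the 7 to 112 day changes, the ones recomputed by name, kept their sign, at -0.80 for Cox7a1, -0.59 for Atp5c1, -0.89 for Sdha, -0.98 for Cox8c, -0.41 for Cox8b and -0.77 for Ndufs4. Ndufa10 lost its F test without any of 23 of the 36 arrays, one at a time, and the dimmer Cox8b probe set without 0 of the 36.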

How the results depend on the processing

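The values given here are counts of called members unless stated. At 23 days (1 called) a filter at percentile 60 gave 2, array weights 4, quantile normalization 0, a block for the replicate number 0, the Gapdh ratio as a covariate 2 and the 6 arrays alone 2, Ndufs4 not among them; leaving out 1 array gave 0 to 2. At 28 days (0) array weights gave 1 and leaving out 1 array 0 to 2. At 56 days (35) quantile normalization gave 11, median centring 54, leaving out arrays with albumin above 10000 gave 20, the 6 arrays alone 10, and leaving out 1 array 11 to 47. At 112 days (9) no filter gave 5, the block 4, the albumin rule 2, the 6 arrays alone 0, the actin ratio 5 and leaving out 1 array 4 to 7. For the mean (23) quantile normalization gave 14, the albumin rule 8, the Gapdh ratio 46 and the actin ratio 10. The change from 56 to 112 days (0) gave 1 with the albumin rule and 0 to 1 with 1 array left out. The change from 7 to 112 days (7) gave 4 with the block, 0 with the albumin rule, 2 with the Gapdh ratio and 1 to 7 with 1 array left out. Control ageing (33) gave 19 with the albumin rule, 15 with the Gapdh ratio and 21 to 37 with 1 array left out, and mdx ageing (2) gave 4 with no filter, with array weights and with the albumin rule, and 1 to 6 with 1 array left out. The F test (5) gave 10 with array weights, 0 with the albumin rule, 3 with the Gapdh ratio and 2 to 6 with 1 array left out. The log2 difference of Atp5c1 at 56 days turned to 0.18 under quantile normalization, and the control ageing of Sdhd to -0.090 with the Gapdh ratio. The causes were not tested, except that the 6 arrays alone and omissions use fewer arrays: the albumin rule kept 27 of 36, with 1 control array at 14 and 1 at 112 days. Replicate numbers did not pair the arrays: 1 of 18 same-numbered pairs of deviations correlated above 0.1 (-0.225 to 0.147). The 7 to 112 day test and the actin ratio were chosen after seeing the data. Of 76 results of named members, 16 were kept in every alternative run. Dim members, and fold sizes near the adjusted threshold, are what 3 arrays a group limit.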
